A study of Mus musculus with 14 samples.

Results

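The genes described here are 10 regulators of mitosis. They are the kinase genes Cdk1, Plk1, Aurka, Aurkb, Bub1 and Bub1b, the cyclin gene Ccnb1, and Cdc20, Ube2c and Cdca3. Cdc20 and Ube2c act with the anaphase-promoting complex (APC/C), and Cdca3 is one of its targets. The 10 genes were chosen by name, with earlier results of these data known. All were found among 55228 gene symbols in the count table. All 10 also passed a filter on low counts that 11757 genes passed. RNA was measured in mouse epidermal cells of genotype Lrig1CreER/Rosa-TdTomato, in which the Lrig1 promoter drives an inducible Cre recombinase and so a red lineage label. The cells, called Lrig1 GL, came from tail epidermis at a time labelled 8w pw1 (GL and pw1 are not spelled out), were sorted for the surface antigen Sca1 to enrich cells of the upper hair follicle, and were grown in keratinocyte medium for 1 week, with treatment given as none. The distal group (6 libraries) came from the region the labels call distal memory, and the control group (8 libraries) from the region they call non-memory; genotype, sort and culture were common to both. The sample descriptions divide the distal libraries into sets of 2 and 4 and the control libraries into sets of 6 and 2, and no set holds both regions. Nothing in the labels says that libraries came from separate mice or cultures, so p-values here measure the spread between libraries, which may be technical.

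Entry into mitosis is driven by Cdk1 bound to cyclin B1, and Polo-like kinase 1 and the Aurora kinases build and attach the spindle. Until every chromosome is attached, the checkpoint proteins Bub1 and BubR1 help to hold back Cdc20, the activator of the APC/C; once released, Cdc20 directs this ubiquitin ligase to cyclin B1 and securin, and Ube2c supplies it with ubiquitin. Most of these transcripts rise late in the cell cycle through CHR and CCAAT promoter elements read by the DREAM, MuvB, FOXM1 and NF-Y proteins, so in an epidermal culture they mark cycling cells. In bulk RNA, fewer cycling cells and less of the RNA per cycling cell cannot be told apart.

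Total counts per library ranged from 2137934 to 4513518 in distal libraries and from 4515646 to 7458872 in control libraries, without overlap. The members held between 58 (Bub1b) and 774 (Ccnb1) counts in a distal library and between 61 (Bub1b) and 1130 (Bub1) in a control library. The 8 keratinocyte markers summed to between 11272 and 19901 CPM in distal and between 6651 and 10660 CPM in control libraries (CPM, counts scaled to a common library size by the TMM method), so the sum moved with region, and its part in the results was not tested. The markers did not move together: Krt14 had a mean of 9224 CPM in distal and 3989 CPM in control libraries, whereas Trp63 had means of 111 CPM in distal and 210 CPM in control libraries and Itga6 of 279 CPM in distal and 497 CPM in control libraries. Krt15 was near 0, at means of 1.17 CPM in distal and 1.48 CPM in control libraries. Lrig1, whose promoter drives the label, averaged 79.1 CPM in distal and 43.9 CPM in control libraries, and Ly6a, which encodes Sca1, 1388 CPM in distal and 1880 CPM in control libraries. The 8 fibroblast markers summed to between 2.98 and 90.3 CPM in distal and between 0.535 and 242 CPM in control libraries, with Lum at 0 throughout. The 6 melanocyte markers summed to at most 5.49 and 4.36 CPM, the 7 immune markers to at most 3.63 and 2.97 CPM, and the 4 endothelial markers to at most 9.51 and 9.86 CPM in distal and control libraries; Dct, Sox10, Cd3e, Cd3g, Cd207 and Cdh5 were at 0 in all libraries.

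With the trend on GC content and transcript length described below in place, the 10 genes did not move as a block. Plk1, Cdc20, Ube2c and Cdca3 were between 2.40 and 2.84 times as high on average in distal as in control cells, with no distal library below the highest control library for any of the 4. Aurka rose by less, and Cdk1, Ccnb1, Aurkb, Bub1 and Bub1b did not pass the test. The test was edgeR's quasi-likelihood F test with p-values adjusted over all tested genes (Benjamini-Hochberg, threshold 0.05). In total, 5 members rose and none fell, where 24.3% of all tested genes rose, 24.1% fell and 48.3% passed in either direction. The share of members past the threshold was therefore near that of all genes, and only the share that rose was above it. Because the members were chosen with earlier results of these data known, that excess is a description only. With counts summed per set, 2 sums against 2, the same 5 members rose, at edgeR adjusted p between 0.0023 (Cdca3) and 0.015 (Aurka), where 18.8% of tested genes rose. Groups without overlap and distal above were found for 4 members and for 12.7% of tested genes. Summed over the 10 genes, levels were 831, 978 and 1075 CPM in distal libraries (lowest, median, highest) and 567, 657 and 844 CPM in control libraries. With the GC and length trend removed, Plk1, Aurka, Bub1b, Ccnb1, Cdc20, Ube2c and Cdca3 had log2 fold changes between 0.51 and 0.75. In that fit Cdk1, Bub1 and Aurkb lay between -0.13 and 0.21, and they and Bub1b did not pass.

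**Figure D1:**
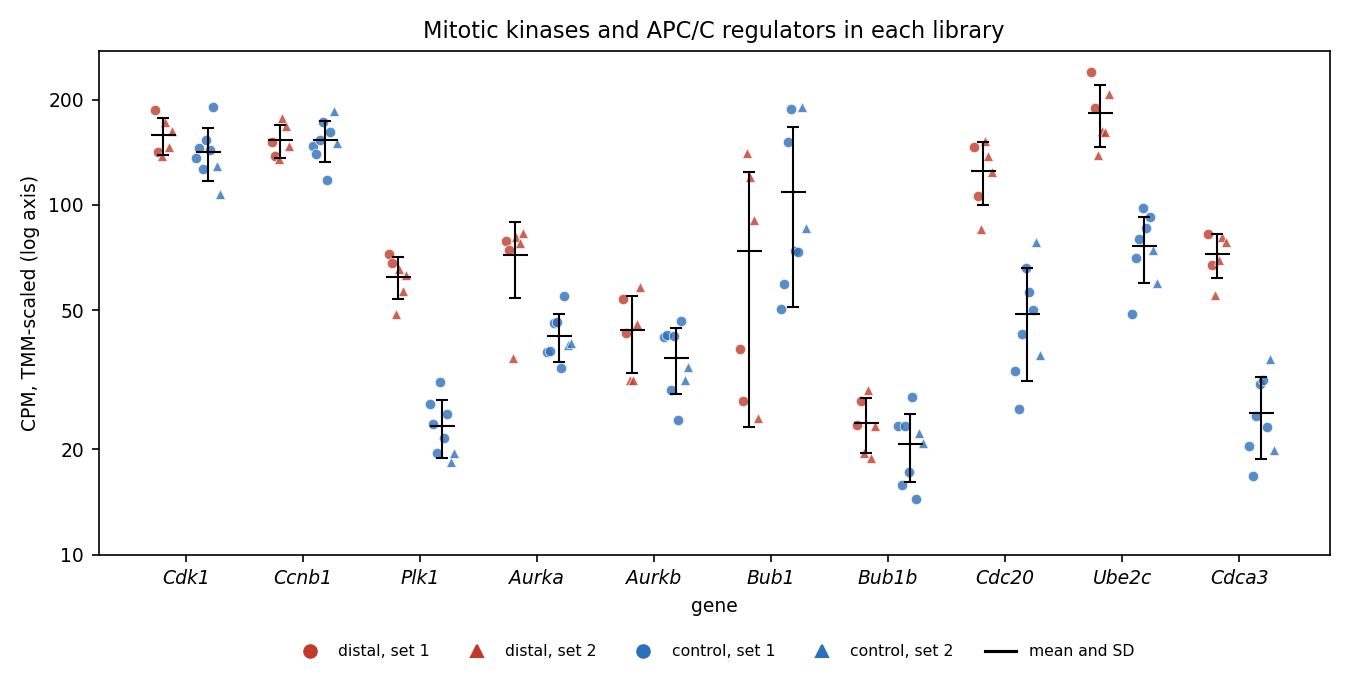
Levels of the 10 genes in every library, in TMM-scaled CPM on a log axis; red points are distal and blue points control libraries, circles are set 1 and triangles set 2 of each region, and black marks give the mean and SD. Plk1, Cdc20, Ube2c and Cdca3 show no overlap between regions, with distal libraries on top, while Cdk1 and Ccnb1 overlap almost fully and Bub1 spreads over 24.6 to 191 CPM.

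Cdk1, the kinase whose activity defines mitosis (chromosome 10, 69335146 to 69352938, minus strand, GRCm38), had a lowest, median and highest level of 138, 155 and 187 CPM in distal libraries and of 107, 140 and 190 CPM in control libraries. Its log2 fold change (distal minus control) of 0.16 ± 0.14 (SE) missed the threshold (edgeR adjusted p = 0.35). Ccnb1, the cyclin that activates it and that the APC/C destroys at anaphase (chromosome 13, 100778650 to 100786570, minus strand), was at 135, 150 and 178 CPM in distal libraries and at 117, 152 and 185 CPM in control libraries. The means of 153 ± 16.6 CPM (SD, n = 6) and 153 ± 20.5 CPM (SD, n = 8) were the closest of any member, and their log2 ratio was 0.00 ± 0.13 (SE; edgeR adjusted p = 0.98). The pseudogene Ccnb1-ps, which could share reads with it, averaged 1.45 CPM in distal and 1.07 CPM in control libraries.

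Plk1, the Polo-like kinase that promotes mitotic entry and spindle assembly (chromosome 7, 122159439 to 122169873, plus strand), was at 48.8, 64.2 and 72.4 CPM in distal libraries and at 18.4, 22.6 and 31.3 CPM in control libraries (lowest, median, highest). The lowest distal library thus stood above the highest control library. Its log2 fold change was 1.42 ± 0.17 (SE; edgeR adjusted p = 4.6e-06). Between sets of the same region Plk1 differed by less on the log2 scale. The difference was -0.26 ± 0.25 (SE) for distal set 2 minus set 1 and -0.38 ± 0.25 (SE) for control set 2 minus set 1. No set holds both regions, so these values cannot tell a difference of region from a difference of set.

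Aurka, the Aurora kinase of centrosomes and spindle poles (chromosome 2, 172356190 to 172370535, minus strand), averaged 71.9 ± 17.6 CPM (SD, n = 6) in distal cells and 42.2 ± 6.56 CPM (SD, n = 8) in control cells. Its log2 fold change was 0.77 ± 0.18 (SE; edgeR adjusted p = 0.0021). Of the distal libraries, 5 lay above the highest control library at 54.9 CPM, and replicate 3, at 36.4 CPM, lay among the controls. In the 2 distal and 8 control libraries with over 4000000 counts, replicate 3 among them, Aurka was at 0.46 on the log2 scale and missed the threshold (edgeR adjusted p = 0.31), whereas Plk1 (1.28), Cdc20 (1.27), Ube2c (0.97) and Cdca3 (1.27) passed it. Aurkb, the kinase of the chromosomal passenger complex that corrects attachments (chromosome 11, 69045647 to 69051664, plus strand), averaged 44.0 ± 10.99 CPM (SD, n = 6) and 36.6 ± 7.80 CPM (SD, n = 8) in distal and control cells. Only 2 distal libraries exceeded the highest control library, and at 0.26 ± 0.20 (SE) on the log2 scale it missed the threshold (edgeR adjusted p = 0.28).

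Bub1, a checkpoint kinase of the kinetochore (chromosome 2, 127801122 to 127831865, minus strand), varied more than any other member. Its lowest, median and highest levels were 24.6, 64.6 and 141 CPM in distal libraries and 50.5, 80.1 and 191 CPM in control libraries. The highest library was 5.72 times the lowest in distal and 3.78 times in control cells, and the SD was 68.5% and 53.1% of the mean. At -0.56 ± 0.41 (SE) on the log2 scale it missed the threshold (edgeR adjusted p = 0.27). Distal replicates 1, 2 and 6 held the lowest levels, at 38.7, 27.4 and 24.6 CPM, and also the smallest totals of their region, from 2137934 to 2414631 counts. Distal replicates 3, 4 and 5, at 141, 120 and 90.6 CPM, had from 3335486 to 4513518 counts. The slope of log2 CPM on GC content, described below, split the same distal libraries. Per 10 percentage points it was 0.91, 0.74 and 0.90 in replicates 1, 2 and 6. In replicates 3, 4 and 5 it was 0.22, 0.34 and 0.60. With the GC and length trend removed, Bub1 stood at 6.14, 5.41 and 5.48 log2 CPM in distal replicates 1, 2 and 6. In distal replicates 3, 4 and 5 it then stood at 7.24, 7.10 and 6.92. The parts of depth and of this slope in the spread of Bub1 were not tested. Without distal set 2, which holds replicates 3 to 6, Bub1 passed as lower at -1.55 (edgeR adjusted p = 0.025). Bub1b, which encodes BubR1, a subunit of the mitotic checkpoint complex (chromosome 2, 118598211 to 118641591, plus strand), was the lowest member, at 23.7 ± 4.24 CPM (SD, n = 6) in distal and 20.7 ± 4.58 CPM (SD, n = 8) in control cells. Its log2 fold change was 0.20 ± 0.20 (SE; edgeR adjusted p = 0.43). Between distal set 2 and set 1 Bub1 differed by 1.52 ± 0.64 (SE; edgeR adjusted p = 0.61), the largest value of any member between sets. No gene passed between the distal sets or between the control sets in edgeR; 921 and 969 of 11757 had an unadjusted p under 0.05.

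Cdc20, the activator that the checkpoint restrains (chromosome 4, 118432901 to 118437352, minus strand), was at 85.5, 131 and 152 CPM in distal libraries and at 26.1, 46.4 and 78.3 CPM in control libraries (lowest, median, highest). All 6 distal libraries stood above the highest control library, and the log2 fold change was 1.36 ± 0.22 (SE; edgeR adjusted p = 9.0e-05). It shares 53 exon bases with Elovl1 on the opposite strand, 2.8% of its exon length, and Elovl1 averaged 199 ± 33.6 CPM (SD, n = 6) in distal and 114 ± 19.1 CPM (SD, n = 8) in control cells. Whether counting used strand is not stated in the labels.

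Ube2c, the E2 enzyme that starts ubiquitin chains for the APC/C (chromosome 2, 164769898 to 164778822, plus strand), was at 139, 176 and 240 CPM in distal libraries and at 48.8, 77.0 and 97.9 CPM in control libraries. Again no library of one region fell within the other, and the log2 fold change was 1.26 ± 0.17 (SE; edgeR adjusted p = 1.5e-05). Of its exon bases 22.8% overlap Tnnc2, a muscle gene on the opposite strand that had no count in any library. Cdca3, also called Tome-1, is an APC/C target known from frog egg extracts to help remove the inhibitory kinase Wee1 (chromosome 6, 124829547 to 124833701, plus strand). It was at 55.2, 73.9 and 82.6 CPM in distal libraries and at 16.8, 24.0 and 36.2 CPM in control libraries. On the log2 scale it rose by 1.50 ± 0.19 (SE; edgeR adjusted p = 7.4e-06), the largest value of the 10.

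**Figure D2:**
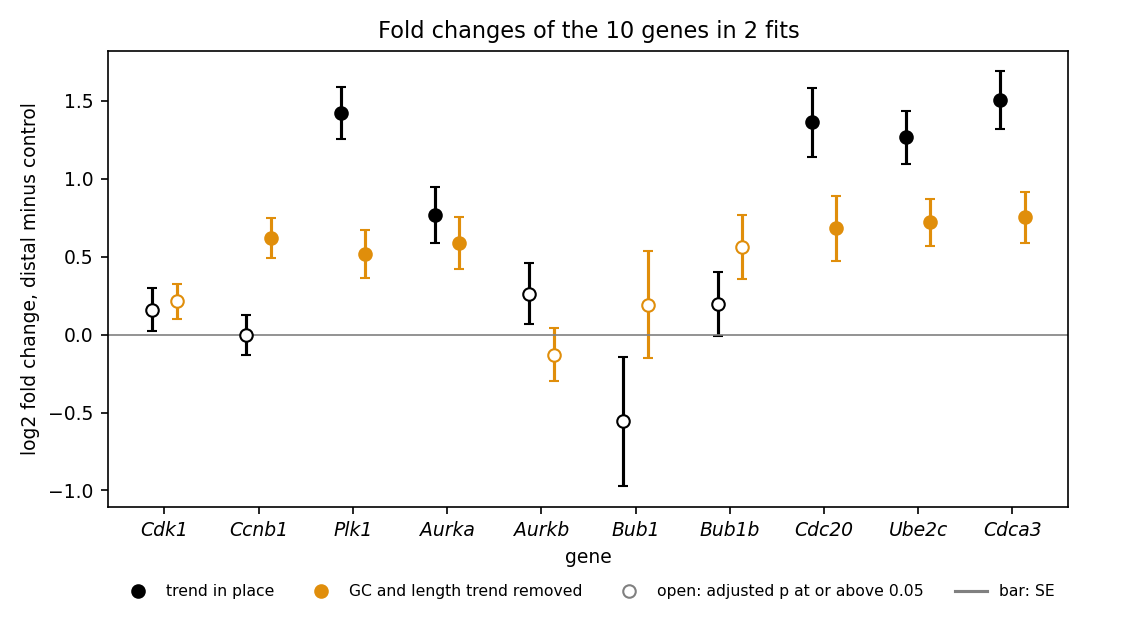
Log2 fold changes (distal minus control) of the 10 genes with their SE, from all 14 libraries; black points have the GC and length trend of the libraries in place and orange points have it removed, and open points did not pass. With the trend in place Plk1, Cdc20, Ube2c and Cdca3 stand between 1.26 and 1.50, and with it removed between 0.51 and 0.75, while Ccnb1 stands at 0.00 with it in place and at 0.62 with it removed.

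The promoters of the 4 genes without overlap are printed with that of Ccnb1, the member whose level was alike in both regions, because they carry the elements through which this family is known to be controlled. RefSeq windows (GRCm38.p6) from 250 bases before to 50 bases after the start were matched for 9 members. Each is read 5′ to 3′ on the gene's own strand, and capitals mark the CHR element (TTTGAA, or TTCAAA on the other strand) and the CCAAT box (CCAAT, or ATTGG on the other strand). The windows are chr7:122159185-122159484 (plus strand) for Plk1, chr4:118437294-118437593 (minus strand) for Cdc20, chr2:164769679-164769978 (plus strand) for Ube2c, chr6:124829926-124830225 (plus strand) for Cdca3 and chr13:100786437-100786736 (minus strand) for Ccnb1.
Plk1: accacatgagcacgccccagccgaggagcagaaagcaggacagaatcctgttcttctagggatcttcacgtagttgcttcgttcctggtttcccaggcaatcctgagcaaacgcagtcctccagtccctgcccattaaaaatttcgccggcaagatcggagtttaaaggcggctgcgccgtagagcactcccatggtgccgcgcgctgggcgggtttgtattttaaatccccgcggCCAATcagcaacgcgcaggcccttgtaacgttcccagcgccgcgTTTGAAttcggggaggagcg
Cdc20: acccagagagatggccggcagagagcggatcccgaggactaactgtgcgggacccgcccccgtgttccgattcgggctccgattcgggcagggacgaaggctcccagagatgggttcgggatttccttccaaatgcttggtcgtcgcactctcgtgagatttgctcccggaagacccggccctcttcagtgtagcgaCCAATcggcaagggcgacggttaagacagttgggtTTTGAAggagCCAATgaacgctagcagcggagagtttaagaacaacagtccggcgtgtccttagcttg
Ube2c: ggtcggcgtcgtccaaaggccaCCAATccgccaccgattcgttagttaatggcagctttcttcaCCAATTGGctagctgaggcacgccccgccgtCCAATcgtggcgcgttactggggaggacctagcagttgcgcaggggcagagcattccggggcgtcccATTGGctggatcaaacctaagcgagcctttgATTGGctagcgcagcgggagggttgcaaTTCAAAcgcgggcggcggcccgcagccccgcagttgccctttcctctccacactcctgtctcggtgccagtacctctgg
Cdca3: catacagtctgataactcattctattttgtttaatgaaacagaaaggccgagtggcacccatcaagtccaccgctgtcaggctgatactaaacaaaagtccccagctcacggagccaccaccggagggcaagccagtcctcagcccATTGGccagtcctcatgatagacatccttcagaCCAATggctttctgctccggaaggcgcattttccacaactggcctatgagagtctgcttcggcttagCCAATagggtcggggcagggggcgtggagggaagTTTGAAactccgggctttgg
Ccnb1: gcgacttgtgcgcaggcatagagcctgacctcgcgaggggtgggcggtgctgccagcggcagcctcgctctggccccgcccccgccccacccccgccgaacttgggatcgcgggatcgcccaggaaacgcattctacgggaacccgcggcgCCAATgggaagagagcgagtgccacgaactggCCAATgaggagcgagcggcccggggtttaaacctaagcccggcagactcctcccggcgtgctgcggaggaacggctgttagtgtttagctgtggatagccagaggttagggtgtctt
All 9 matched members held a CCAAT box, against 37.4% of 32851 promoter windows. The CHR letters were found in 7 of the 9, against 17.9% of windows, and both elements together in 7 against 7.0%. The windows of Bub1 and Ccnb1 held CCAAT boxes but not these CHR letters. Other forms of the element were not searched, so these windows are not shown to lack it. The other 7 windows were those of Plk1, Aurka, Bub1b, Cdk1, Cdc20, Ube2c and Cdca3. Plk1 and Cdca3 both had TTTGAA starting at base 31 after the start, Cdc20 had it 18 bases before the start, and Ube2c had the reverse letters 29 bases before it. Cdk1, whose level did not pass, had 2 CHR matches, at 71 and 15 bases before the start. Ube2c had 6 CCAAT matches, of which a pair overlap in the run CCAATTGG, which reads as a box on both strands. Plk1, Aurka, Cdc20, Ube2c and Cdca3, which rose with the trend described next in place, all held the CHR letters. So did Cdk1 and Bub1b, which did not pass. Bub1 and Ccnb1, without these letters, did not pass either. Any part of the letters in the levels was not tested.

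Transcript GC content ran alongside the differences between regions. Within each library, log2 CPM centred per gene was regressed on GC content together with log2 median transcript length. The GC slope per 10 percentage points was between 0.22 and 0.91 in distal and between -0.60 and -0.33 in control libraries. Tested genes were divided by GC content into 5 equal groups. In the lowest, which holds Bub1 (38.9% GC), 0.344% rose and 53.3% fell. In the next group, with Ccnb1 (44.2%) and Bub1b (46.8%), the median log2 fold change was -0.57, below both members. The middle group, with Cdk1 (49.5%) and Aurka (51.4%), had a median of -0.17. The next holds Aurkb (52.1%), Ube2c (53.4%), Cdc20 (54.2%) and Cdca3 (54.6%); its median was 0.50, above Aurkb and below the other 3, and 40.4% of its genes rose. Plk1 (56.0%) lies in the highest group, where the median was 1.09 and 67.2% rose. All members but Aurkb stood above the median of their group.

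**Figure D3:**
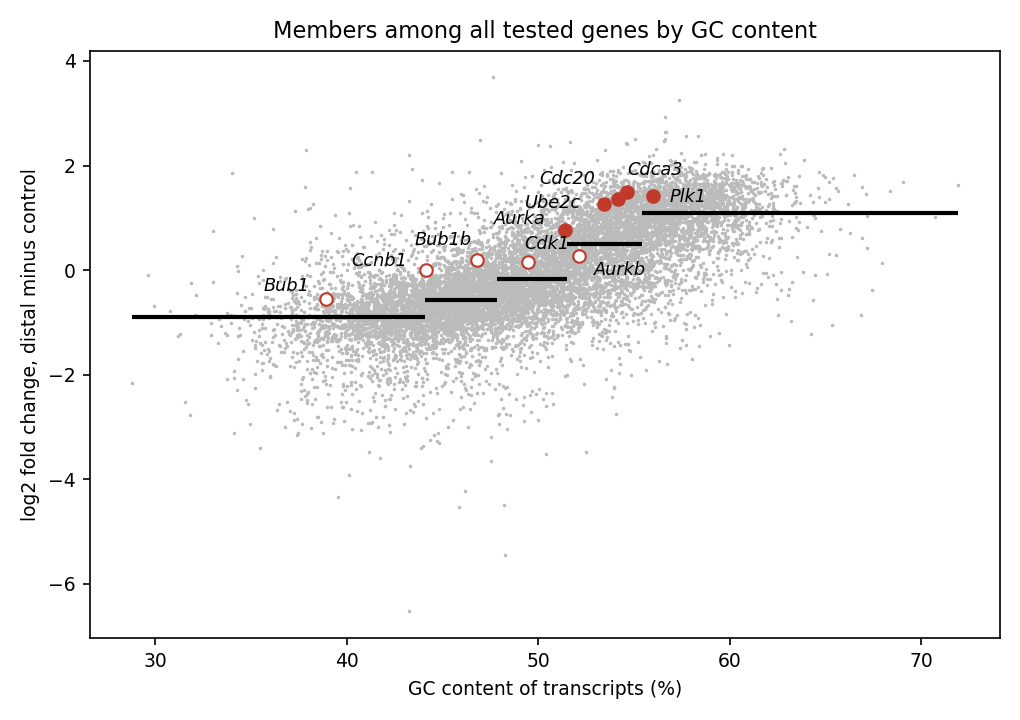
Log2 fold change (distal minus control) against the GC content of each gene's transcripts in percent; grey points are all tested genes, black bars are the medians of 5 equal groups by GC content, and circles are the 10 members, filled where they passed. The median runs from -0.89 in the lowest group to 1.09 in the highest, and the 5 filled members lie at 51.4% GC or above.

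With each library's trend on GC content and transcript length removed, 6 members rose and none fell, where 8.77% of tested genes rose and 9.6% fell. Cdca3 then stood at 0.75 ± 0.16 (SE; edgeR adjusted p = 0.0038) on the log2 scale and Ube2c at 0.72 ± 0.15 (SE; edgeR adjusted p = 0.0029). Cdc20 (0.68), Aurka (0.59) and Plk1 (0.51) also passed, at edgeR adjusted p of 0.028, 0.020 and 0.027; with the replicate block added to this fit Aurka missed the threshold (0.63; edgeR adjusted p = 0.052). Ccnb1 rose in this fit, by 0.62 ± 0.13 (SE; edgeR adjusted p = 0.0027). Bub1b (0.56), Cdk1 (0.21), Bub1 (0.19) and Aurkb (-0.13) did not pass. In these values Ube2c and Cdca3 kept all 6 distal libraries on top of the controls, against 3.81% of tested genes. With the removal applied to counts summed per set, 2 sums against 2, no member passed in edgeR (smallest adjusted p = 0.051), while 7 had an unadjusted p under 0.05 and all 10 were above 0, from 0.05 to 0.96; 1.28% of tested genes rose in that fit. So the size of each change, and whether Ccnb1 counts among those that rose, depend on the treatment of this trend.

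Ratios of raw counts within a library do not depend on scaling, and 4 were computed. The ratio of Cdc20, which targets cyclin B1, to Ccnb1 was 0.631, 0.832 and 0.968 in distal libraries and 0.186, 0.294 and 0.479 in control libraries (lowest, median, highest). That of Plk1 to Cdk1 was 0.353, 0.387 and 0.481 in distal libraries and 0.133, 0.158 and 0.204 in control libraries. Neither of these overlapped between regions, and they were chosen after the values were seen. The share of all gene pairs without overlap was not computed. Among single tested genes, 18.3% had no overlap between regions in TMM-scaled CPM. The ratios of Aurka to Aurkb and of Bub1 to Bub1b overlapped, at medians of 1.58 and 2.85 in distal libraries and of 1.18 and 4.62 in control libraries. The genes of the pairs without overlap differ in GC content, so those ratios carry the GC trend too. On the log2 scale Cdc20 and Ccnb1 changed by 1.36 and -0.0036 with the trend in place. With it removed they changed by 0.68 and 0.62. Plk1 and Cdk1 changed by 1.42 and 0.16 with it in place and by 0.51 and 0.21 with it removed. Ratios with the trend removed were not computed.

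**Figure D4:**
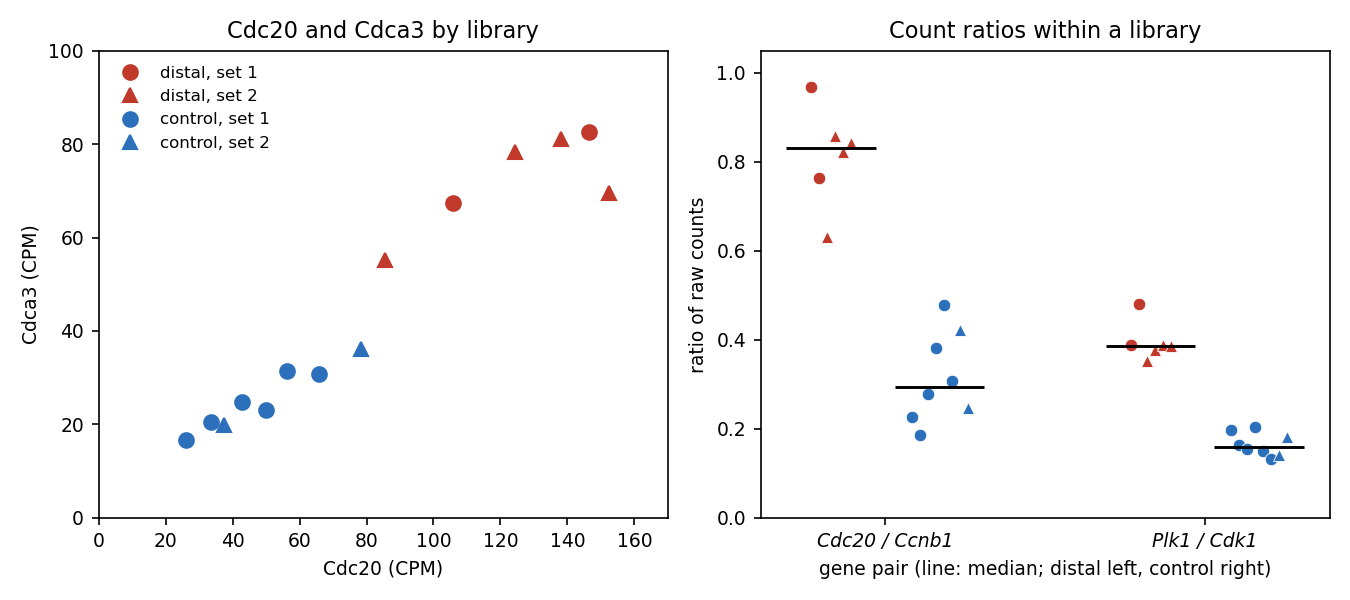
Left, Cdca3 against Cdc20 in TMM-scaled CPM, with 1 point per library; right, the ratio of raw counts of Cdc20 to Ccnb1 and of Plk1 to Cdk1 in each library, distal on the left (red) and control on the right (blue), with the median as a line and the sets as circles and triangles. The lowest distal ratio of Cdc20 to Ccnb1 is 0.631 and the highest control ratio is 0.479, with the GC trend in place.

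The members varied together only in part. After subtraction of each region's mean, the 45 pairs had Pearson's r from -0.56 to 0.93 over 14 libraries, with a median of 0.24. The pair with the highest value was Cdc20 and Cdca3, at r = 0.93 (Spearman's rho = 0.89), and at r = 0.93 with the trend removed. Within control cells it was r = 0.96 and rho = 0.93 over 8 libraries, and r = 0.90 without the 2 libraries farthest from the median of Cdc20. Within distal cells it was r = 0.82 and rho = 0.66 over 6 libraries, but r = -0.40 without the 2 farthest, so there it rests on those libraries. The next pair was Plk1 and Cdk1 at r = 0.63, and the lowest was Aurkb and Bub1 at r = -0.56. These values are descriptions: the libraries share sets, depth and GC trend, and the pairs were ranked after they were seen.

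Per kilobase of exon, which adjusts for length but not for GC content, Ube2c (70.4 ± 14.01 CPM per kb, SD, n = 6) and Cdc20 (67.1 ± 13.8) were the highest in distal cells. Next came Ccnb1 (36.3), Cdk1 (32.0), Aurka (28.4), Plk1 (28.4), Cdca3 (25.2), Bub1 (16.9) and Aurkb (14.9), and last Bub1b (5.55). Neighbours in that order lay within their SDs, except that Cdc20 stood apart from Ccnb1 and Aurkb from Bub1b. In control cells Ccnb1 led at 36.4 ± 4.86 CPM per kb (SD, n = 8), followed by Ube2c (29.3), Cdk1 (28.7), Cdc20 (26.1), Bub1 (25.1), Aurka (16.7), Aurkb (12.4), Plk1 (10.6), Cdca3 (8.89) and Bub1b (4.84). There only Cdca3 and Bub1b stood apart. With the median transcript length in place of all exon bases Cdk1 was the highest, at 228 in distal and 204 CPM per kb in control cells, so the order depends on the length used. These levels also carry the GC trend of the libraries, whose part in the order was not tested.

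The other genes of the pathway were taken from 9 lists with 111 entries, 110 of them tested. Of these 27 rose and 39 fell; the median change on the log2 scale was -0.26, beside -0.16 over all tested genes and 0.51 over the 10 members. The share that rose was near the 24.3% of all tested genes, and the share that fell was above their 24.1%. With the trend removed 16 rose and 16 fell, beside 8.77% and 9.6% of tested genes, and the medians were 0.04, -0.02 and 0.58. Values in parentheses below are log2 fold changes, first with the trend in place and then with it removed.

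The APC/C itself has a catalytic core and scaffold subunits, and 6 of its 14 subunits rose and 5 fell, against 5 and 1 with the trend removed. Anapc11, the RING subunit, rose by 1.16 ± 0.15 (SE; edgeR adjusted p = 1.3e-05; 0.83 with the trend removed), and Anapc2, the cullin beside it, by 1.37 ± 0.19 (SE; edgeR adjusted p = 1.8e-05; 0.60). Anapc15 rose too (1.48 and 1.30). Cdc27, a subunit that binds the activators, fell (-1.42 and -0.60), and each of these 4 passed in both fits. Among 6 activators, partner enzymes and inhibitors, Fzr1, the activator that follows Cdc20 in late mitosis, averaged 53.7 ± 16.8 CPM (SD, n = 6) in distal and 14.9 ± 4.73 CPM (SD, n = 8) in control cells. It rose in both fits (1.85 and 0.77), as did Ube2s, which extends the chains that Ube2c starts (1.53 and 0.58). Trip13 (-0.72 and -0.18) and Ube2d1 (-0.78 and -0.30) fell with the trend in place only.

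In the spindle checkpoint list 2 of 13 genes rose and 7 fell. Ttk, the kinase that recruits checkpoint proteins, averaged 24.9 ± 11.5 CPM (SD, n = 6) in distal and 79.0 ± 28.4 CPM (SD, n = 8) in control cells and fell in both fits (-1.65 and -0.94). Mad2l1 (-0.85 and -0.11), Nuf2 (-1.15 and -0.35) and Spc24 (0.86 and -0.07) passed with the trend in place only. With it removed Ttk alone fell, and Bub3, a partner of Bub1 and BubR1 named after its values were seen, alone rose (0.18 and 0.33). Of 10 tested partners and relatives of the Aurora and Polo kinases, 1 rose and 2 fell: Plk3 (1.36 and 0.39) rose, and Plk4, the kinase of centriole duplication (-0.66 and 0.16), and Tpx2, the activator of Aurora A (-0.40 and 0.07), fell, all 3 with the trend in place only. With the trend removed the 1 gene of this list that passed was Incenp, the scaffold of the chromosomal passenger complex, which fell (0.14 and -0.64; named after its values were seen). Nek2 (0.59 and 0.55) did not pass in either fit.

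In the list of the Cdk1 switch 2 of 13 genes rose and 4 fell, and with the trend removed none rose and 2 fell. Wee1, the kinase that holds Cdk1 inactive, averaged 38.9 ± 6.29 CPM (SD, n = 6) in distal and 96.8 ± 21.6 CPM (SD, n = 8) in control cells; it fell in both fits, at -1.31 ± 0.17 (SE; edgeR adjusted p = 1.3e-05) and -1.11 ± 0.17 (SE; edgeR adjusted p = 0.00030). Mastl, the Greatwall kinase that keeps mitotic phosphatase in check, also fell in both (-1.60 and -0.67). The cyclin gene Ccna2 (-0.56 and -0.06) and the Wee1 relative Pkmyt1 (1.04 and 0.14) passed with the trend in place only.

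Of 11 other APC/C substrates 3 rose and 4 fell, and 1 rose with the trend removed. That was Cdca5, or sororin, which protects cohesion (0.94 and 0.92). Tk1 (0.91 and 0.05), Hmmr (-1.09 and -0.32) and Sgo1 (-1.23 and -0.67) passed with the trend in place only. Among 14 genes of the transcription factors 4 rose and 2 fell; Mybl2, or B-Myb, the partner of the MuvB complex, rose in both fits (1.47 and 0.54). E2f4 (1.16 and 0.26), Lin54 (-1.24 and -0.31) and Rbl1 (-0.79 and 0.03) passed with the trend in place only. Foxm1, a mitotic activator named after its values were seen, averaged 30.0 ± 5.77 CPM (SD, n = 6) in distal and 39.6 ± 13.3 CPM (SD, n = 8) in control cells. It did not pass with the trend in place (-0.40; edgeR adjusted p = 0.15) and fell with it removed (-0.97; edgeR adjusted p = 0.0061).

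Of 14 proliferation and spindle motor genes 1 rose and 7 fell, against 3 and 4 with the trend removed. Mki67, the common marker of cycling cells, averaged 209 ± 55.9 CPM (SD, n = 6) in distal and 417 ± 68.2 CPM (SD, n = 8) in control cells and fell in both fits (-0.99 and -0.45). Cenpe, a kinetochore motor, fell in both as well (-1.11 and -0.58), and the centromere histone gene Cenpa rose in both (1.05 and 0.59). Top2a (-0.97 and -0.37) passed with the trend in place only. Of 15 replication genes 6 rose and 6 fell, and 2 rose and 6 fell with the trend removed. The genes that fell were not all the same. Mcm2 and Cdt1, named after their values were seen, rose with the trend in place and fell with it removed. The clamp gene Pcna (-1.36 and -0.65) and the nucleotide reductase gene Rrm2 (-1.04 and -0.72) fell in both fits, the helicase gene Mcm7 rose in both (0.85 and 0.69), and Rrm1 (-0.77 and -0.11) passed with the trend in place only.

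**Figure D5:**
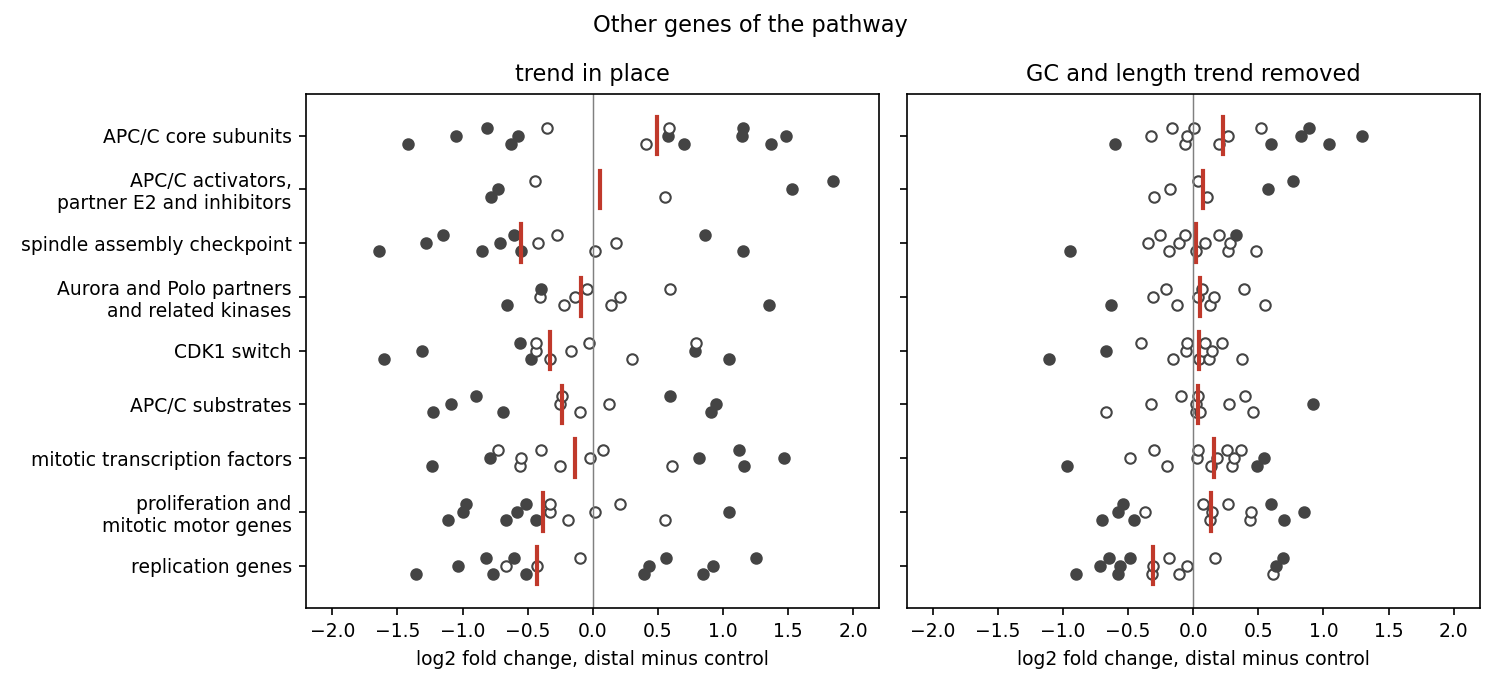
Log2 fold changes (distal minus control) of the tested genes in 9 lists, with 1 point per gene, filled where it passed; red bars are the list medians, on the left with the GC and length trend in place and on the right with it removed. Values within a list lie on both sides of 0 in both panels, and the list medians on the right lie between -0.31 and 0.23.

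The 6 tested genes whose variation was most like the mean of the members, after subtraction of region means over 14 libraries, were Ap2a2 (r = 0.86, rho = 0.76), Sfn (r = 0.86, rho = 0.82), Tcf19 (r = 0.84, rho = 0.81), Rab24 (r = 0.84, rho = 0.77), Cad (r = 0.83, rho = 0.80) and Prune1 (r = 0.83, rho = 0.81). Without the 2 libraries farthest from the median, their r lay between 0.69 and 0.81. With the trend removed Prune1 kept r = 0.81 and Ap2a2 r = 0.76, while Sfn was at 0.56. These genes were picked as the highest among all tested genes, and their values share the libraries' depth and GC trend.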

How the data were processed

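Sorted and cultured mouse epidermal cells were profiled as small bulk samples by Smart-Seq2 with tagmentation by Nextera XT, as the labels' protocols describe. The authors deposited raw counts per gene symbol for 14 libraries, made with HISAT2 and featureCounts on mm10/GRCm38, per the submitters' processing notes. The annotation release, the strand setting and the treatment of reads with several matches are not given in the sources used here. Smart-Seq2 reads carry no molecular identifiers in this table, so counting error understates the error of a library.

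Tests on these counts used edgeR 4.0.16 under R 4.3.3 (the filterByExpr filter, scaling by TMM, robust two-sided quasi-likelihood F test, Benjamini-Hochberg over 11757 genes, threshold 0.05), distal minus control; the SE is the log2 difference over the root of its F value. Sets were compared in a model with 4 set means. GC content, lengths and positions came from GENCODE vM21 (GRCm38); a GC value was found for 98.9% of tested genes. Each library's trend (natural splines with 4 degrees of freedom for GC content and for log2 median transcript length, on log2 CPM with a prior count of 2) was entered as offsets. GC content and this length are medians over a gene's annotated transcripts. For members the length ran from 609 (Bub1) to 1862 bases (Aurka), beside exon lengths of 1868 (Cdc20) to 4934 bases (Cdk1). The removal was not repeated with another length. limma 3.58.1 and DESeq2 1.42.0 were alternatives. Alternatives kept the tested genes, except the filters and the fits with the trend removed, which held the 11633 genes with a GC value. The code was tested on simulated counts. Members and lists were chosen with earlier results of these data known. Named genes are the members, up to 4 genes with the smallest p in each list, the 6 genes most like the members and marked additions. Replicate numbers 1 to 6 occur in both regions, and nothing in the labels says that they pair libraries. Same-numbered libraries correlated at -0.0171 to 0.11 after subtraction of region means, which does not settle whether libraries are paired. These running numbers differ from some numbers in the sample descriptions, which were not tried as pairs. Sets are numbered 1 and 2 in both regions, and whether a number links sets across regions is not given.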

Additional observations from a re-analysis of the deposited data

Results flagged for a closer look

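In the 20 combinations of a member and a region, 1 library stood far from the rest of its group: distal replicate 3 had 36.4 CPM of Aurka, where the other distal libraries had 74.3 CPM or more. The gap took 0.809 of the range of the 6 libraries, above Dixon's critical value of 0.625. Chance flags about 1 such group in 20. This library had the largest total count of its region, 4513518, and the smallest slope on GC content, 0.22 per 10 percentage points; their part in the Aurka value was not tested. Without it the log2 fold change of Aurka was 0.90, against 0.77 with it.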

How the results depend on the processing

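The analysis was repeated under 20 alternatives and without each library in turn; checks of the comparison between sets were added after seeing the data and left its count at 0. Plk1, Cdc20, Ube2c and Cdca3 stayed above 0 throughout. So did Aurka (lowest 0.38) and Bub1b (lowest 0.14), although Bub1b missed the threshold in the main fit. Without 1 library, 2685 to 3210 genes rose and 2099 to 3091 fell, with 5 members higher and 0 lower each time; Ccnb1 lay between -0.051 and 0.12. Upper-quartile and total-count scaling shifted the median of all genes from -0.16 to 0.00 and 0.05. Genes past the threshold numbered 1376 lower with counts summed per set, 1020 higher and 1117 lower with the trend removed, 1096 and 878 with the trend removed and the replicate block added, 149 and 110 with the trend removed from summed counts (0 members), 612 and 340 with the total count as a covariate, 821 and 544 in libraries over 4000000 counts, 1187 and 1113 without control set 1, and 1674 lower without distal set 1. Bub1 was the 1 member lower in the 4-set model (-1.07; edgeR adjusted p = 0.042) and without distal set 2. Aurka did not pass with the covariate (0.38), in libraries over 4000000 counts or without control set 1 (0.84), leaving 4 members, nor with the trend removed and the block added (0.63). After thinning, Cdk1 passed (0.45), giving 6. The replicate block alone gave 5 members higher, with 2755 genes higher and 2616 lower. The labels do not say that the numbers pair libraries, and 2 of 6 correlated best with their own number.

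Some log2 fold changes took the opposite sign; the cause was not tested. Ccnb1, near 0, was at 0.16 and 0.21 with upper-quartile and total-count scaling, 0.067 with the strict filter, 0.0044 with limma-voom, 0.090 with summed counts, 0.11 with the block, 0.62 with the trend removed, 0.73 with the trend removed and the block added, 0.74 with the trend removed from summed counts, 0.045 thinned, 0.062 with the covariate, 0.010 in libraries over 4000000 counts, and 0.11, 0.11 and 0.087 without control set 2, distal set 1 and distal set 2. With the trend removed, Aurkb was at -0.13, Bub1 0.19, Spc24 -0.067, Plk4 0.16, Tpx2 0.071 and Rbl1 0.033. With the trend removed and the replicate block added, Aurkb was at -0.066, Bub1 0.33, Spc24 -0.023, Plk4 0.21, Tpx2 0.14, Ccna2 0.017 and Rbl1 0.15. With the trend removed from counts summed per set, Bub1 was at 0.17, Mad2l1 0.19, Plk4 0.29, Tpx2 0.20, Ccna2 0.16, Pkmyt1 -0.093, Lin54 0.10, Rbl1 0.11 and Rrm1 0.088. With the covariate, Aurkb was at -0.50, Bub1 1.28, Cdk1 -0.019, Ube2d1 0.15 and Plk4 0.12. In libraries over 4000000 counts, Aurkb was at -0.23 and Bub1 at 0.24. Depth and region cannot be told apart fully, since totals do not overlap.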
